A study of Homo sapiens with 3 samples.

Results

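The RNA-binding protein TIA1 and 9 genes for other RNA-binding proteins, most of them with a preference for U-rich, AU-rich or pyrimidine-rich RNA, were examined as RNA targets of TIA1 itself. The genes were TIA1, TIAL1, ELAVL1, PTBP1, PTBP2, PTBP3, CELF1, KHSRP, PCBP2 and ZFP36L1. They were chosen by name, and each was taken as a fixed interval of the hg19 genome with its strand. An eCLIP interval belonged to a gene when it overlapped that interval by at least 1 nt on the same strand. The 10 genes held 327 of the 103134 clusters of replicate 1, 245 of the 66222 clusters of replicate 2, and 14 of the 2253 reproducible peaks.

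The study mapped TIA1 contacts in HEK293T cells, a laboratory line derived from human embryonic kidney, by crosslinking, immunoprecipitation and sequencing (eCLIP). Ultraviolet light fixes a protein to the RNA it touches, an antibody collects the protein, and the attached RNA fragments are sequenced and compared with an input that skipped the antibody. All libraries came from cells given 600 mJ of ultraviolet light, 2 of them anti-TIA1 replicates and 1 the input, with no other treatment or genotype named. The labels call the replicates technical in one place and biological in another, and one protocol assigns the antibody's catalogue number to Msi1, so the spread between replicates may be technical only. The input is present only through the authors' folds, as their denominator.

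TIA1 and its close relative TIAL1 bind stretches of U, help the splicing machinery recognise weak splice sites, restrain translation of bound messages and collect in stress granules. The other genes encode proteins that compete or cooperate on similar RNA. ELAVL1 stabilises AU-rich messages, while KHSRP and ZFP36L1 promote their decay. The polypyrimidine tract binding proteins PTBP1, PTBP2 and PTBP3 regulate exon choice, CELF1 binds GU-rich RNA, and PCBP2 binds C-rich RNA. Many such proteins are known to bind messages of their own family, and the comparison here asks which of these messages TIA1 contacted.

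Of the 10 transcripts, 6 carried at least 1 reproducible peak. The share of all genes with a peak was not counted, so nothing particular to these genes can be read from this number. PCBP2 had 4, PTBP2 had 3, TIAL1, PTBP1 and KHSRP had 2 each, and CELF1 had 1. TIA1, ELAVL1, PTBP3 and ZFP36L1 had 0 peaks. The 14 peaks had log2 folds over input from 3.15 to 5.79 with a median of 3.87, which is 14.6-fold, beside a median of 4.15 over the whole list. Only 6 of the 14 lay above that list median. Folds and −log10 p-values are the authors' own and describe intervals within their list.

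Clusters of single replicates were counted next. A cluster was counted as enriched when its log2 fold reached 3 and its −log10 p also reached 3. On these transcripts 18 of 327 clusters in replicate 1 were enriched (5.50%, exact 95% interval 3.29 to 8.56), beside 3.09% of all clusters of that replicate. In replicate 2 the number was 26 of 245 (10.6%, 7.05 to 15.2), beside 5.32%. Both intervals treat clusters as independent, although clusters of the same gene are not. They therefore give counting error only and do not test a difference from all clusters. Clusters here also held more reads: 14.4% in replicate 1 and 19.2% in replicate 2 had enough reads to pass both limits, against 7.11% and 10.1% of all clusters. With the input number at its lowest, 1, passing takes at least 13 reads for replicate 1 and 10 for replicate 2. Among clusters with that many reads, 18 of 47 (38.3%) were enriched in replicate 1 beside 43.4% of all such clusters, and 26 of 47 (55.3%) in replicate 2 beside 52.4%. This minimum is on the reads that also enter the fold, and the read numbers above it were not matched, so these shares only describe the clusters that could pass. No cluster lay on the opposite strand of the 10 intervals in either replicate.

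**Figure D1:**
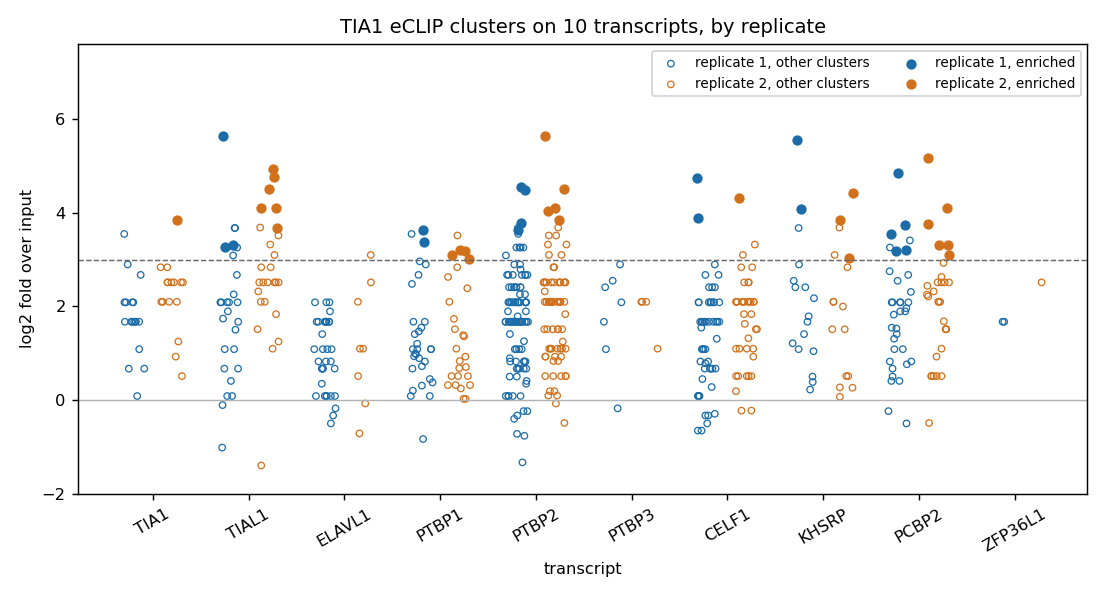
Log2 fold over input (vertical axis) of every cluster on the 10 transcripts (horizontal axis), blue for replicate 1 and orange for replicate 2. Filled points passed both limits, 3 for the log2 fold (dashed line) and 3 for the −log10 p; they number 18 in replicate 1 and 26 in replicate 2, with none on ELAVL1, PTBP3 or ZFP36L1, and the solid line marks equality with the input.

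The transcripts differed in how densely they were covered. Reads in clusters were expressed per 1000000 library reads and per kb of interval. The length is that of the whole interval with introns, so the order depends on interval length. Before division by length, PTBP2 stood highest with 201 and 205 reads in replicates 1 and 2, against 122 and 93.6 for KHSRP. Per kb, KHSRP and PTBP1 stood highest, at 10.4 and 8.0 for KHSRP and at 10.03 and 8.48 for PTBP1. These did not differ beyond their spread. PCBP2 followed with 5.04 and 4.93. TIAL1 had 3.65 and 5.23, and these ranges overlap, so the order of PCBP2 and TIAL1 is not resolved. PTBP2 had 2.15 and 2.20, and CELF1 1.02 and 0.980. ELAVL1 (0.910 and 0.276) and TIA1 (0.732 and 0.881) overlapped each other. ZFP36L1 (0.254 and 0.227) and PTBP3 (0.110 and 0.0521) were lowest. These values mix RNA abundance with TIA1 binding, since they are not divided by the input, and they count only clusters whose reads could be recovered from the fold and p-value. In replicate 1 the 2 enriched clusters of KHSRP adjoin and may share reads, which would raise its value.

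TIA1 lies at chr2:70436576-70475792 (minus strand). Its own message held 18 clusters in replicate 1 and 16 in replicate 2, all above the input, with median log2 folds of 1.67 and 2.51. Over all genes, 94.3% and 96.0% of the clusters of the replicates were above the input, and the median log2 folds were 1.67 and 2.10. In replicate 1, 8 of the 17 TIA1 clusters with recovered reads had 3 reads, the fewest among them. Covered sequence on TIA1 came to 455 nt and 532 nt, with a mean of 4.53 and 4.31 reads per cluster. None of the 18 clusters of replicate 1 was enriched, and 1 of the 16 of replicate 2 was. That cluster, at chr2:70456102-70456174, had a log2 fold of 3.84 on 10 reads over an input number of 1, with an exact 95% counting interval from 1.02 to 9.27. The overlapping cluster of replicate 1 had 4 reads over 1 and a log2 fold of 2.09.

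Few reads lay in any single cluster of TIA1. No cluster of replicate 1 reached the 13 reads needed; its best, at chr2:70452380-70452416, had 11 reads over 1, a log2 fold of 3.55 and a −log10 p of 2.57. The replicate 2 cluster at that place had 3 reads. Enrichment by these limits was therefore not detected in both replicates, which does not show that it is absent. Shallow sequencing, little RNA and weak binding cannot be told apart from these reads. No TIA1 cluster lay within 3 kb of the 3′ end of the interval. The nearest was 3.04 kb from it in replicate 1 and 5.64 kb in replicate 2. TIAL1 also had 0 clusters within 3 kb in both replicates, as did ELAVL1 and ZFP36L1 in replicate 1 and PTBP3 in replicate 2. Whether clusters avoid that end was not tested. In the annotation an overlapping gene on the same strand, C2orf42, shares part of the TIA1 locus, and reads of the overlapping transcripts cannot be told apart there.

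TIAL1, the paralogue that shares TIA1's domain plan, carried 2 reproducible peaks, where TIA1 carried 0; the difference was not tested. TIAL1 lies at chr10:121332978-121356541 (minus strand) and held 27 and 26 clusters, of which 3 and 6 were enriched. Its peak at chr10:121336527-121336608 had the highest fold of all 14 peaks. There the log2 fold was 5.64 in replicate 1 on 47 reads and 5.94 in replicate 2 on 43 reads, both over an input number of 1. The mean was 5.79 ± 0.21 (SD, n = 2), which is 55.4-fold and rank 57 of 2253 in the reproducible list. Replicate 2's own, slightly shifted cluster had 43 reads over 2 and a log2 fold of 4.94. Both replicates were high, and the lower ends of their exact counting intervals were 3.09 and 3.38.

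A second TIAL1 peak lay 189 nt away, at chr10:121336298-121336337. It had 27 reads in replicate 1 and 18 in replicate 2 over 2 in the input, with a log2 fold of 3.76 ± 0.11 (SD, n = 2), rank 1627. The peaks sat 3.59 and 3.34 kb from the 3′ end of the interval, and no cluster of either replicate lay within 3 kb of that end. Further up the transcript, 5 sites were enriched in 1 replicate. Replicate 2 alone had 4 of them, led by chr10:121340388-121340428 at a log2 fold of 4.76 on 19 reads, where replicate 1 had 9 reads and 3.26. The other 3, at chr10:121341381-121341414, chr10:121352820-121352932 and chr10:121353740-121353783, had log2 folds of 4.10, 4.51 and 4.10. Replicate 1 had no cluster at the middle one of these. The site of replicate 1 alone, chr10:121351696-121351743, had a log2 fold of 3.26 on 18 reads, against 2.51 on 8 reads in replicate 2.

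**Figure D2:**
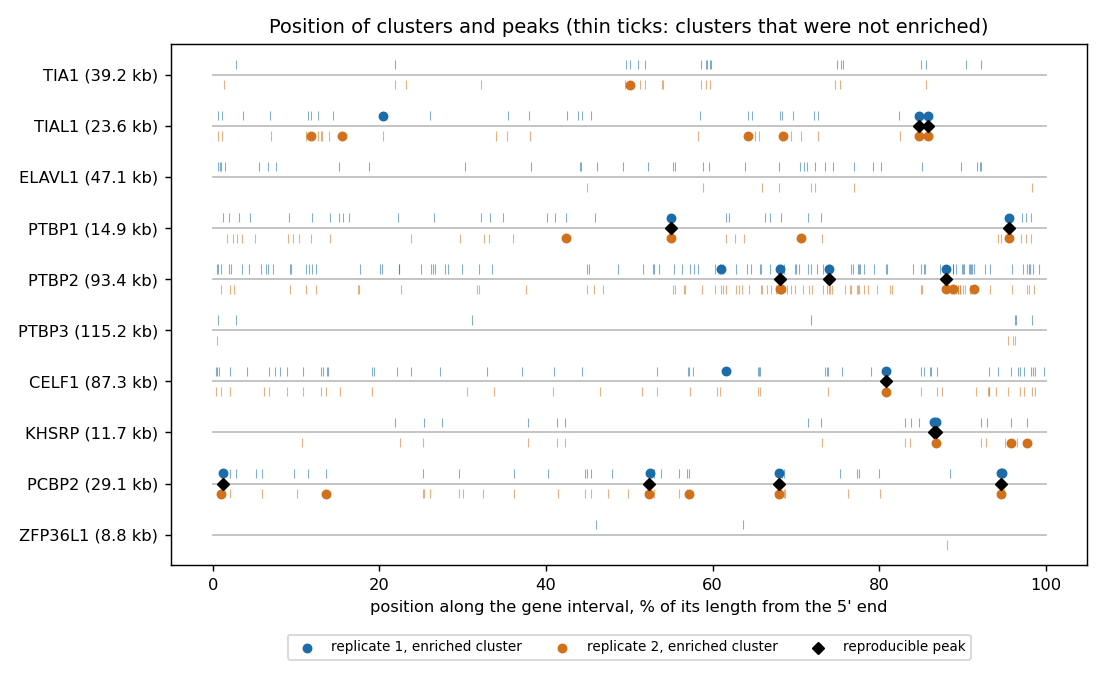
Position of clusters along each gene interval, as percent of its length from the 5′ end (horizontal axis), for the 10 transcripts (vertical axis, with interval length). Thin ticks are clusters that were not enriched, circles are enriched clusters of replicate 1 (blue, above the line) and replicate 2 (orange, below), and diamonds are the 14 reproducible peaks; the 2 peaks of TIAL1 and the 2 of KHSRP each lie close together.

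The PTB family showed peaks on PTBP1 and PTBP2 and none on PTBP3. PTBP2, the form used by neurons, lies at chr1:97187175-97280605 (plus strand). It held the most clusters of the 10, 102 in replicate 1 and 77 in replicate 2, with 4 and 5 enriched and 3 reproducible peaks. The strongest, chr1:97250826-97250869, had a log2 fold of 4.55 on 22 reads in replicate 1 and 5.64 on 35 reads in replicate 2 over 1 in the input. Its mean of 5.09 ± 0.77 (SD, n = 2) carried the widest spread of the 14 peaks. A two-sided exact binomial test of its reads against the library totals gave p = 0.00478, and an adjusted p of 0.130 over all tested peaks, so the difference between replicates did not pass.

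The next PTBP2 peak, chr1:97269392-97269442, was the most even of the 14. Replicate 1 had a log2 fold of 4.48 on 21 reads and replicate 2 had 4.51 on 16 reads, both over 1, for a mean of 4.50 ± 0.02 (SD, n = 2). The third, chr1:97256273-97256345, leaned on replicate 1. It had 3.63 on 35 reads there and 2.74 on 14 reads in replicate 2 over 3 in the input, a mean of 3.18 ± 0.63 (SD, n = 2). The overlapping cluster listed for replicate 2 itself had a log2 fold of 2.10. All 3 peaks lay inside the gene, 29.8, 24.3 and 11.2 kb from the 3′ end of the interval. Replicate 2 also had an enriched cluster at chr1:97270183-97270228, with 23 reads over 2 and a log2 fold of 4.04, where replicate 1 had 12 reads over 2 and 2.67. Its further enriched clusters, chr1:97250900-97250943 and chr1:97272531-97272574, had log2 folds of 4.10 and 3.84, against 3.55 and 3.26 in replicate 1. Replicate 1 alone was enriched at chr1:97244145-97244174, with 13 reads over 1 and a log2 fold of 3.79, against 4 reads and 2.51.

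PTBP1, the widely expressed repressor of exons, lies at chr19:797392-812327 (plus strand). It was densely covered, with 31 and 28 clusters, yet its median log2 folds were low at 1.09 and 1.23, and 2 and 4 clusters were enriched. Its peak at chr19:811635-811692, 0.664 kb from the 3′ end, had 35 reads in replicate 1 and 19 in replicate 2 over 3 in the input, with a log2 fold of 3.40 ± 0.32 (SD, n = 2). The peak at chr19:805589-805636 had 39 and 24 reads over 4 and a log2 fold of 3.24 ± 0.19 (SD, n = 2). Both ranked low in the list, 1941 and 2106 of 2253, with input numbers of 3 and 4. Replicate 2 alone was enriched at chr19:803705-803756, where the log2 folds were 3.02 and, in replicate 1, 2.96. It was also enriched at chr19:807909-807975, at 3.21 on 13 reads over 2, where replicate 1 had no cluster.

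PTBP3 spans chr9:114980715-115095947 (minus strand). Although this was the longest of the intervals, it held 7 clusters in replicate 1 and 4 in replicate 2. Replicate 1 had at most 11 reads in a cluster, and each of the 4 of replicate 2 had 3. Its best cluster, chr9:114984849-114984920, had 11 reads over 2 and a log2 fold of 2.55 in replicate 1, and replicate 2 had none overlapping it. Enrichment on PTBP3 was not detected with so few reads.

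KHSRP and CELF1 encode factors of message decay and splicing. KHSRP, which recruits decay enzymes to AU-rich messages, lies at chr19:6413119-6424822 (minus strand). Of its 17 and 16 clusters, 9 in each replicate lay within 3 kb of the 3′ end. The peak at chr19:6414627-6414682 held the most reads of the 14 peaks, 80 in replicate 1 and 51 in replicate 2 over 5 in the input. Its log2 fold was 4.09 and 3.86, a mean of 3.98 ± 0.16 (SD, n = 2), and the exact counting intervals ran from 2.81 to 5.75 and from 2.55 to 5.55.

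Directly beside it, with 0 nt between them, the list has a 10 nt peak at chr19:6414683-6414692. That narrow peak had 44 and 28 reads over 1 and a log2 fold of 5.43 ± 0.16 (SD, n = 2), rank 118. Replicate 2 listed a single cluster, chr19:6414633-6414693, across both, with 50 reads over 5 and a log2 fold of 3.84. Replicate 2 thus did not separate the 2 KHSRP peaks. Its 51 and 28 reads at them together exceed the 50 of that cluster, so the peaks may share reads. The peaks lay 1.54 and 1.57 kb from the 3′ end. Nearer that end replicate 2 had 2 further enriched clusters, chr19:6413591-6413623 with a log2 fold of 3.04 and chr19:6413374-6413399 with 4.42. The replicate 1 clusters there had 2.18 and 3.67.

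CELF1, a regulator of splicing and of message decay, lies at chr11:47487489-47574792 (minus strand). It had 52 and 38 clusters, with 2 and 1 enriched. Its peak at chr11:47504175-47504235 had 25 reads in replicate 1 and 14 in replicate 2 over 1, and a log2 fold of 4.53 ± 0.29 (SD, n = 2). The site was 16.7 kb from the 3′ end. A cluster enriched in replicate 1, chr11:47520934-47520980, had 14 reads over 1 and a log2 fold of 3.89, and replicate 2 had no cluster there.

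PCBP2, which binds C-rich RNA and acts in message stability and translation, had the most peaks. It lies at chr12:53845886-53874946 (plus strand), with 35 and 31 clusters, of which 5 and 6 were enriched. The strongest peak, chr12:53873349-53873394, was 1.57 kb from the 3′ end. It had 27 reads in replicate 1 and 25 in replicate 2 over 1, log2 folds of 4.84 and 5.16, and a mean of 5.00 ± 0.22 (SD, n = 2), which is 32.0-fold and rank 279. The other 3 peaks were weaker and spread along the gene.

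Of those, chr12:53865612-53865670 had 22 and 20 reads over 2 and a log2 fold of 3.69 ± 0.20 (SD, n = 2). The peak at chr12:53861102-53861142 had 25 and 14 reads over 2 and a log2 fold of 3.53 ± 0.29 (SD, n = 2). The remaining one, chr12:53846211-53846278, was the lowest of the 14 at 3.15 ± 0.07 (SD, n = 2), with 26 and 18 reads over 3. It lay at the other end of the gene, 1.23% along the interval from the 5′ end, and was the only one of the 14 peaks less than 50% along its interval. Replicate 2's own overlapping cluster had a log2 fold of 2.93 and was not enriched, but the adjoining cluster chr12:53846179-53846210 was, at 3.32 on 14 reads. Replicate 2 also had enriched clusters at chr12:53849812-53849855 with 4.10 and chr12:53862479-53862532 with 3.10, where replicate 1 had log2 folds of 3.41 and 2.75. Replicate 1 alone was enriched at chr12:53873395-53873430, next to the strongest peak, with 17 reads over 2 and a log2 fold of 3.18, against 6 reads and 2.10.

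The AU-rich element regulators ELAVL1 and ZFP36L1 had no enriched cluster in either replicate. ELAVL1 lies at chr19:8023457-8070529 (minus strand), and its 36 clusters in replicate 1 and 8 in replicate 2 had median log2 folds of 0.956 and 1.10. No ELAVL1 cluster with recovered reads held enough of them to pass. In replicate 1 the cluster with the highest −log10 p, chr19:8028220-8028282, had 8 reads over 2 and a log2 fold of 2.09. In replicate 2 it was chr19:8038527-8038564, with 6 reads over 1 and a log2 fold of 3.10, and the replicate 1 cluster there had 7 reads over 2 and 1.89. Only 4 of the 36 clusters of replicate 1 met a cluster of replicate 2. Summed over the recovered clusters of replicate 1, ELAVL1 had 115 reads over 55 in the input, a log2 fold of 1.15, beside 231 over 44 and 2.48 for TIAL1. TIAL1 was the highest of the genes in this measure, and PTBP1 and CELF1, which also carried peaks, had 1.62 and 1.65. PTBP3, TIA1 and ZFP36L1, with 0 peaks, lay above these at 2.18, 1.89 and 1.67, on fewer reads. In replicate 2 ELAVL1 had 1.51, near 1.52 for PTBP1 and 1.59 for CELF1. Clusters at or below the input, and others whose reads were not unique, are left out of these sums. For ELAVL1 in replicate 1, 33 of the 36 clusters were above the input and 27 were recovered.

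ZFP36L1, at chr14:69254372-69263190 (minus strand), had 2 clusters of 3 reads in replicate 1 and 1 cluster of 4 reads in replicate 2, none of them overlapping. Their log2 folds were 1.67 and 2.51, and no statement about TIA1 on this message was possible from so few reads.

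**Figure D3:**
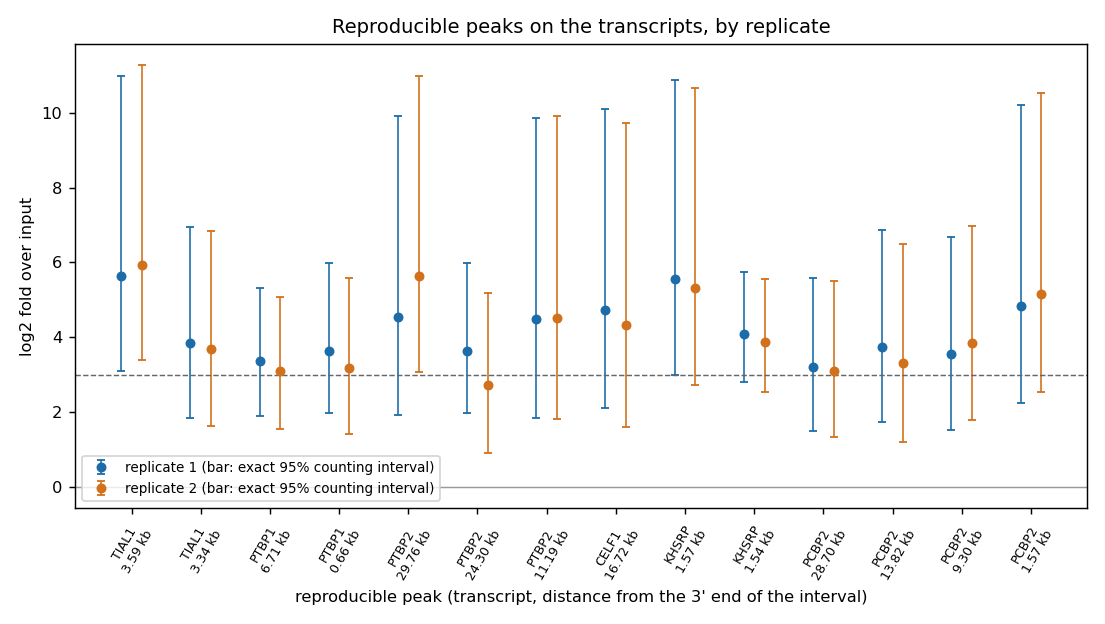
Log2 fold over input (vertical axis) of the 14 reproducible peaks in replicate 1 (blue) and replicate 2 (orange), with exact 95% counting intervals from the reads of each peak and its input number; peaks are named by transcript and distance from the 3′ end of the interval. All intervals lie above 0 (solid line), most are wide where the input number is 1, and those of the replicates overlap at every peak. The peaks come from a list called reproducible between these replicates, so such agreement was partly set in advance. The dashed line is a log2 fold of 3.

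The replicates were then compared over all 14 peaks. These come from the list that the authors called reproducible between the same replicates. Agreement and high folds at them were therefore partly set by that choice. The fold was higher in replicate 1 at 9 peaks and in replicate 2 at 5, with SDs from 0.02 to 0.77 and a median of 0.21, beside 0.21 over the whole list. A log2 fold of 3 was reached in both replicates by 13 of the 14, all except the third peak of PTBP2. Reads ran from 21 to 80 in replicate 1 and from 14 to 51 in replicate 2. In the exact binomial test of replicate 1 against replicate 2, with Benjamini-Hochberg adjustment over 2247 peaks, 0 of the 14 differed, beside 1.82% of all peaks tested. Unadjusted, 1 of the 14 had p below 0.05, the PTBP2 peak named above, and Fisher's exact test also called 0. This test compares 2 libraries, not conditions. In 6 of the 14 peaks the input number was 1, beside 51.3% of all peaks with whole reads. An input number of 1 is the least the lists contain and may stand for 0, and the intervals cover counting error only.

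Enriched clusters of the replicates were shared in part. On these transcripts 12 of the 18 of replicate 1 (66.7%) overlapped an enriched cluster of replicate 2, and 11 of the 26 of replicate 2 (42.3%) overlapped one of replicate 1. The same shares over all enriched clusters were not counted, so nothing particular to these transcripts can be read from them. Joined across replicates they formed 32 sites, of which 11 were enriched in both, 6 in replicate 1 alone and 15 in replicate 2 alone. PCBP2 had 3 of the shared sites, TIAL1, PTBP1 and PTBP2 had 2 each, and CELF1 and KHSRP had 1 each. Sites enriched in 1 replicate were usually covered in the other. Of 18 such clusters with a cluster of the other replicate, 5 from replicate 1 and 13 from replicate 2, all were above the input there. Among all clusters of the lists, 94.3% in replicate 1 and 96.0% in replicate 2 were above the input, so this is near the general share.

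Peaks were found both near the 3′ end and far inside the gene. Of the 14, 4 lay within 3 kb of the 3′ end of the interval. These were the 2 adjoining peaks of KHSRP and 1 each of PTBP1 and PCBP2, and within 5 kb the 2 of TIAL1 joined them. The other 8 lay from 6.71 kb (PTBP1) to 29.8 kb (PTBP2) away. Peak widths ran from 10 to 82 nt with a median of 53.5 nt, near the 53 nt of the whole list. Exons, introns and untranslated regions of hg19 were not assigned here. In the annotation PTBP1 and KHSRP each also overlap a microRNA gene on their strand, and PTBP3, CELF1 and PCBP2 overlap other genes. Reads of such genes inside the interval would be counted with the host.

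The mature messages of these genes held more runs of U per kb than most genes, but not all were rich in U as a share of bases. In the longest coding transcript of each gene in GENCODE release 29, runs of 5 or more U were counted on the transcript strand. The median over 19659 protein-coding genes was 1.49 runs per kb, and 83.2% had at least 1 run. All 10 genes lay above that median. PTBP3 had 5.88 runs per kb, TIAL1 5.52, PTBP2 5.33, TIA1 4.73, ZFP36L1 4.70, CELF1 4.57 and ELAVL1 4.32. PCBP2 had 3.57, KHSRP 2.34 and PTBP1 1.9. As a share of all bases, U made up 18.0% of KHSRP and 20.9% of PTBP1, below the 24.6% median of all genes, and from 26.2% (ZFP36L1) to 34.7% (PTBP2) of the other 8.

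U runs per kb did not order the transcripts by peaks. PTBP3, with more runs per kb than 98.7% of genes, and TIA1, above 95.2%, had 0 peaks, while KHSRP and PTBP1, above 67.6% and 58.9%, had 2 each. The genes also differed in reads. In recovered clusters of replicates 1 and 2, PTBP3 had 34 and 12 reads and TIA1 had 77 and 69. KHSRP had 327 and 187, and PTBP1 402 and 253. With few reads a peak could hardly be called, so a role of U runs was not tested. TIA1 and TIAL1 were close in this measure, with 22 and 28 runs, of which 20 and 27 lay in the 3′ untranslated part of the transcript. Their longest runs were 10 and 21 U. The counts describe spliced transcripts only, so they say nothing of introns, and a run is a description of sequence and not a binding site.

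**Figure D4:**
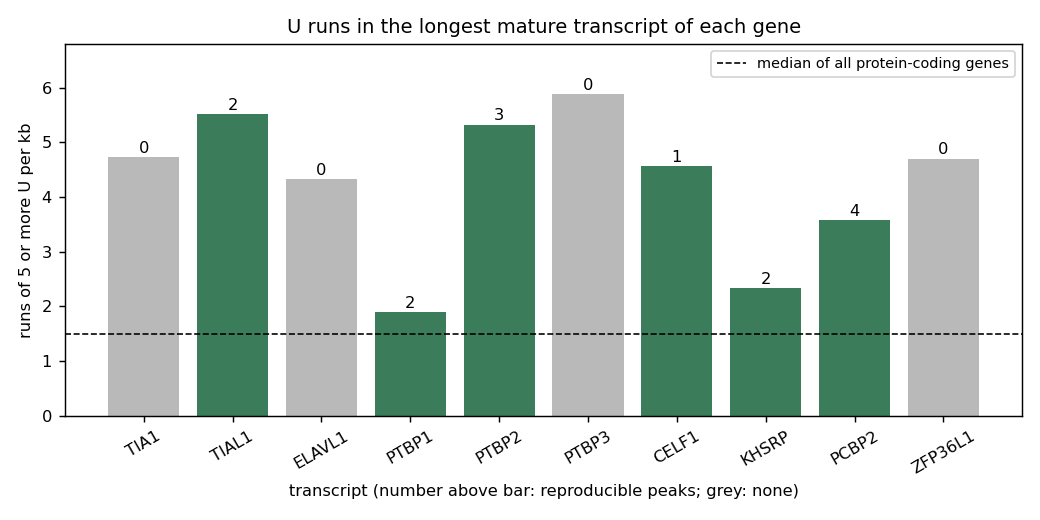
Runs of 5 or more U per kb in the longest coding transcript of each of the 10 genes (bars), with the number of reproducible peaks above each bar and grey for genes with 0 peaks. The dashed line is the median of 19659 protein-coding genes, 1.49 per kb. All 10 bars rise above it, and the tallest, PTBP3, has 0 peaks and few reads.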

How the data were processed

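Per the labels' protocols the reads went through the Yeo laboratory's eCLIP pipeline. The submitters' processing notes name cutadapt 1.14 and 1.9.1, STAR 2.4.0i, SAMtools 1.4.1 and hg19; the name of the cluster caller is not given in the sources used here. From the authors come 1 cluster list per replicate and 1 list of reproducible peaks for both. In each, the deposited −log10 p-value compares an interval with the input (ceiling 400) and the deposited log2 value is the authors' library-scaled fold over input; the lists have no header, and the units were read from the values.

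Reads were recovered from the steps of the fold and matched to the p-value (relative tolerance 2e-05), giving totals of 2683407 and 1997817 reads for replicates 1 and 2 and 2851338 for the input. Reads were unique for 88.6% and 93.9% of clusters; clusters at or below the input were not recovered. At a reproducible peak the replicate that supplied the bounds gave its listed fold and the other followed from the mean, which returned whole reads (tolerance 1e-04) at 99.7% of peaks and at all 14 used here. An input number of 1 may stand for 0. Intervals are Clopper-Pearson, conditional on the reads of the interval. Positions count from 1.

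The exact binomial test was run over the 2247 peaks of 2253 with whole reads, and tested on simulated data; SciPy 1.17.1 was used. Named sites were every reproducible peak and, per gene and replicate, the enriched cluster of highest fold or else the cluster of highest −log10 p; other enriched clusters named were chosen after their values were seen. The 10 genes, limits and alternatives were chosen with earlier results of these data known. U runs and neighbouring genes came from GENCODE 29 (GRCh38). Neighbours were genes that overlapped the GRCh38 span of the gene on its strand, not the hg19 interval. Sequences at the sites, and other U-rich binders that would need an hg19 annotation, were not analysed here.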

Additional observations from a re-analysis of the deposited data

How the results depend on the processing

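With limits of 4 for the log2 fold and 5 for the −log10 p, replicate 1 kept 7 enriched clusters instead of 18, replicate 2 kept 7 instead of 26, and the reproducible list 5 of 14 peaks, on TIAL1, PTBP2, KHSRP and PCBP2. Requiring an input number of at least 2 left 10 and 13 enriched clusters. The opposite strand gave 0 enriched clusters in replicate 1, 0 in replicate 2, 0 peaks and 0 transcripts with a peak. Without replicate 1 or replicate 2, peaks that overlapped an enriched cluster of the remaining replicate numbered 12 and 14, on 6 transcripts each, and the median log2 fold was 3.85 and 3.97. Leaving out PTBP2, chosen after seeing the data, gave 14 enriched clusters for replicate 1 and 21 for replicate 2. All other settings stayed within 1.5 times of the main count. No paired analysis was possible because the input has a single library and the lists hold only the immunoprecipitated replicates. On TIA1, ELAVL1, PTBP3 and ZFP36L1 no cluster of replicate 1 with recovered reads had the 13 reads needed to pass; the part of depth in this was not tested.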

Other observations

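At TIAL1, 2 clusters of replicate 2, chr10:121341381-121341414 and chr10:121353740-121353783, had 12 reads over an input number of 1, and the overlapping clusters of replicate 1 also had 12 reads over 1. In replicate 2, the shallower library, this gave a log2 fold of 4.10 and a −log10 p of 3.72, and in replicate 1 a log2 fold of 3.67 and a −log10 p of 2.86, so the sites counted as enriched in replicate 2 alone. Of the 13 enriched clusters of replicate 2 on these transcripts that met an unenriched cluster of replicate 1, 7 had a log2 fold of at least 3 in replicate 1 and missed the limit on −log10 p. Of the 5 enriched clusters of replicate 1 that met an unenriched cluster of replicate 2, 0 had a log2 fold of at least 3 there, with values from 2.10 to 2.93.

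ELAVL1 changed most in cluster number between libraries, from 36 in replicate 1 to 8 in replicate 2, while the other genes with at least 10 clusters kept closer numbers, such as 102 and 77 for PTBP2. Its reads in clusters were 115 and 26.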
